A study of Drosophila melanogaster with 3 samples.

Results

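Dense peak clusters outside the Bithorax complex were 50 kb windows of the Drosophila melanogaster genome that held 10 or more peak summits of the abd-A protein. Windows were counted from position 1 of each main chromosome arm on the dm6 assembly, and windows touching the Bithorax complex (chr3R:16656623-16972236) were set aside. The rule chose 136 of 2673 windows (5.09%), with 1783 of the 8143 summits of the list thresholded by the irreproducible discovery rate (IDR), a measure of how well peak ranks repeat. The windows were chosen by their summit counts in these same embryos, so the number of summits per window is a description and not a result. The summits belonged to 1558 distinct peak intervals, since a broad interval can carry several summits. Counted by intervals, 95 of the 136 windows held 10 or more, and the lowest count was 5. Chromatin was immunoprecipitated through GFP from 3 biological replicates. Each was a collection of whole embryos of mixed sex, 4 to 24 hours old. All 3 came from a transgenic line, labelled strain abd-A, that stably expresses abd-A with GFP at its C-terminus, and there was no second genotype, treatment or time. A whole embryo pools many cell types, so a strong peak in few cells and a weak peak in many cannot be told apart. Nonspecific precipitation and binding cannot be told apart either, since no untagged or GFP-only library was analysed here.

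The homeodomain protein abd-A, from 1 of the 3 Hox genes in the Bithorax complex, gives abdominal segments their identity. Hox proteins bind short AT-rich sites, often beside the TALE homeodomain partners extradenticle and homothorax. Developmental genes in flies often carry many separate enhancers spread over long introns and flanking DNA, so a single locus can hold many binding sites. GAGAG is the core bound by the GAGA factor and by pipsqueak, and GCCAT is the core of sites for the Polycomb-group protein Pho.

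The sequences at the strongest summit of 6 of the densest windows show what the precipitated DNA looks like. Each is the plus strand of dm6 from the RefSeq genome, with 50 bases on either side of the summit, and capitals mark any of 11 short words searched on both strands. The tara summit lay at chr3R:16242640-16242740 in the tara gene, 126 bp from a coding transcript start. The summit of a window with no coding gene lay at chr3L:10737280-10737380, and that in the window of CG42831 at chr3L:10815075-10815175. The noc summit lay at chr2L:14490253-14490353, 556 bp from the start of noc, and the other two at chr2L:19027403-19027503 and chr2L:14422342-14422442.
tara window: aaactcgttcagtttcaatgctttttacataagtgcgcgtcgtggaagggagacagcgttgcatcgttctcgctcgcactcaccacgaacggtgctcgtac
3L window with no coding gene: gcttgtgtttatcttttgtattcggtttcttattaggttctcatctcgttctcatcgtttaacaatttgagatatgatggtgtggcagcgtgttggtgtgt
CG42831 window: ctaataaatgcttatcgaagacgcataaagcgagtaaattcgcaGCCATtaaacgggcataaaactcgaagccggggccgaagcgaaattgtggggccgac
noc window: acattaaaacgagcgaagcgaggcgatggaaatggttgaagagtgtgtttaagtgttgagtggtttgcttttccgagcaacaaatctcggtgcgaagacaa
robl37BC window: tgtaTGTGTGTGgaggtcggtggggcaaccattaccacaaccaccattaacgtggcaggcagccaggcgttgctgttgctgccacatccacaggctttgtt
elB window: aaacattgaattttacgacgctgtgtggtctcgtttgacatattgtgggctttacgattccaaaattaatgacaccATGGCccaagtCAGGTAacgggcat
No searched word was found at 3 of the 6, the summits of tara, of noc and of the window with no coding gene. GCCAT was found at the CG42831 and elB summits, the latter read on the minus strand, CAGGTA at the elB summit and CACACACA at the robl37BC summit. None of the 6 held the homeodomain words TAATTA or TTAATTA.

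Another 3 summits, picked after the words had been counted, show the words at their plainest. They are the strongest summits, outside one arm from which no sequence is printed, with at least 4 copies of GAGAG, at least 4 of CACACACA and at least 1 of TTAATTA. Capitals mark that word only. The first lay at chr3R:7037371-7037471 in an Antp window, the second at chr3L:10724979-10725079 in the 3L window with no coding gene, and the third at chr3L:16014632-16014732 in the Diap1 window.
GAGAG summit: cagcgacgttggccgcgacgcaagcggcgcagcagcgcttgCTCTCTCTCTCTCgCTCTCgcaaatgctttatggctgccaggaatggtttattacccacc
CACACACA summit: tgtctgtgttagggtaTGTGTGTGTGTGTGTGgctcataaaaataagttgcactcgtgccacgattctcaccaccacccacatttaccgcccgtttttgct
TTAATTA summit: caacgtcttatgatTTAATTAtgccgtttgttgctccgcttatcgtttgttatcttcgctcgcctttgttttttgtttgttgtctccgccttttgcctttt
The first held 6 overlapping copies of GAGAG, all read on the minus strand as CTCTC, and ranked 16 of the 8143 summits by signal. The second held 5 overlapping copies of CACACACA and ranked 162. The TTAATTA summit ranked 286, and its nearest coding start was that of mib1, a ubiquitin ligase of Notch signalling, at 2870 bp.

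Signal is given below as a relative signal. It is the highest authors' score among replicate peaks overlapping the summit's interval, divided by the median score of that replicate's 30000 peaks. Summits that share an interval thus share the same value, and a weak summit can carry the value of a stronger neighbour. The tara window (chr3R:16200001-16250000) was the densest, with 33 summits, 19 of them in or within 2000 bp of tara, a trithorax-group gene. Among the 8143 strongest peaks of each replicate, this window held 35, 34 and 33 summits in replicates 1, 2 and 3. Its strongest summit had relative signals of 12.1, 9.21 and 11.1. The interval with the highest mean relative signal, a different one, made up only 8.74% of the window's summed signal. This was the lowest such share of the 136 windows, but such a share falls as a window holds more intervals. Separate intervals of the tara window had mean relative signals of 11.4, 10.8, 8.83 and 8.64. Its summits were spaced by a median of 996 bp. In contrast, the second window (chr3L:10700001-10750000) held 27 summits and no coding gene. Its replicates held 27, 24 and 28, and 23 of its summits were among the strongest peaks of all 3. One interval in it ranked 14 and had relative signals of 17.4, 16.3 and 15.7 (16.5 ± 0.860, SD, n = 3), with the nearest coding start, that of CG43245, 34595 bp away. The next strongest summit of that window, the CACACACA summit printed above, had relative signals of 6.98, 8.0 and 8.30.

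The third window (chr3L:10800001-10850000) also held 27 summits, with 29, 29 and 27 in the replicates. CG42831 took 6 of them and tna, a trithorax-group gene of the SUMO ligase family, took 4. The adjoining window added 14 summits, 11 of them at tna, among them a summit in an intron, 1137 bp from a coding transcript start of tna, that ranked 11 with relative signals of 17.3, 16.6 and 15.9. All 3 replicates put that tna summit within a narrow range. On arm 2R the sbb window held 25 summits (25, 22 and 26 in the replicates), all 25 in the body of sbb, which encodes the nuclear corepressor scribbler, also called brakeless. The px window had 22 (22, 21 and 20), all in px, the plexus gene of wing vein patterning. The window of shn, a zinc-finger factor of the Dpp pathway, had 21 (19, 20 and 24), all in shn, of which CG13229 shared 3. These 3 windows were runs of sites within 1 gene.

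The noc window had 22 summits (21, 21 and 23 in the replicates), but noc, a zinc-finger gene of appendage, eye and tracheal development, took only 3 of them. It was part of the longest unbroken run of dense windows, 4 windows over 200 kb (chr2L:14350001-14550000) with 67 summits, which also holds elB, a close relative of noc. The replicates placed 60, 61 and 63 of their strongest summits in that run. The Su(z)2 window had 21 summits (18, 19 and 17), with 3 at Su(z)2, a Polycomb-group RING finger gene. Its strongest summit lay 18700 bp from the start of Su(z)2, with relative signals of 7.29, 5.91 and 7.51. The adjoining Psc window, named for the related Polycomb-group gene, held 18 (17, 20 and 16), 5 of them at Psc. The window of CG6191, CG45088 and CG13334 held 20 (19, 19 and 19). The overlapping genes CG6191 and CG45088 shared the same 7 of them, and CG13334 took 6. The leading summit of that window had relative signals of 17.7, 16.9 and 14.0. The last of the 10 densest held 20 summits (16, 22 and 22), 11 at atos and 9 at tou, a chromatin-remodelling subunit gene, and its strongest summit lay 227 bp from the start of tou (13.6, 10.4 and 12.7).

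**Figure D1:**
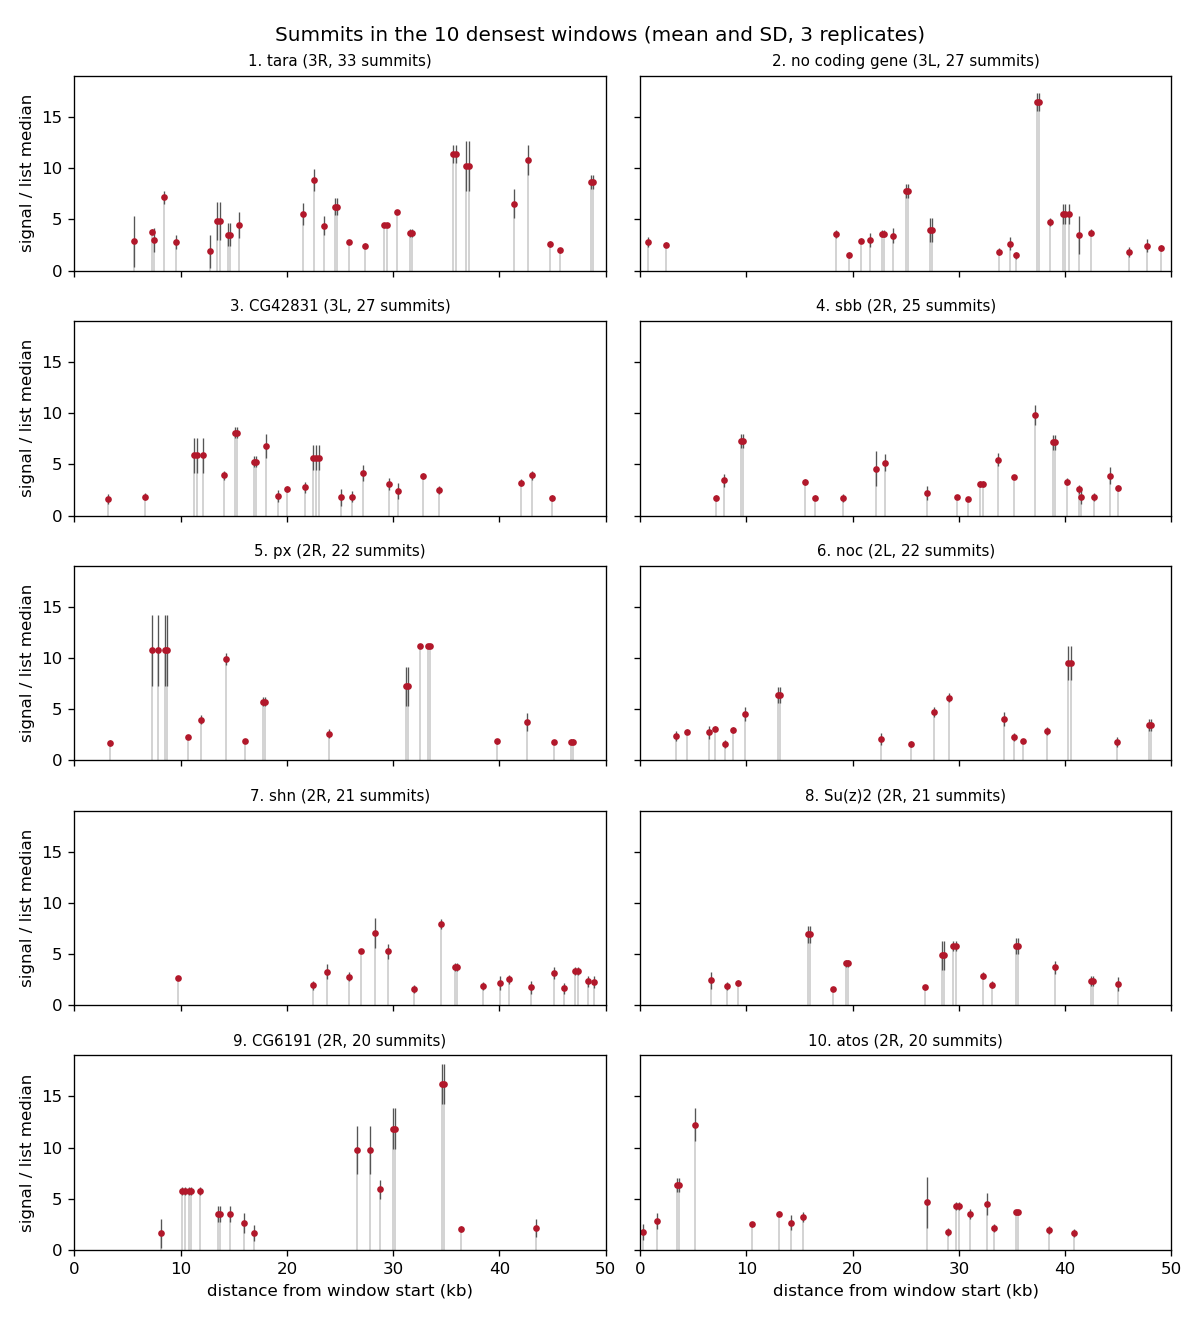
Relative signal of each IDR summit (signal divided by the median of the replicate's list; point, mean; bar, SD of 3 replicates) against distance from the window start in kb, in the 10 densest windows. The tara panel holds 33 summits, with separate intervals at 11.4 and 10.8, while the panel with no coding gene is led by 1 interval at 16.5 ± 0.860.

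The 10 strongest summits of all the clusters lay in 7 windows, and the strongest were not in the densest ones. A window on 2L with 14 summits (15, 14 and 15 in the replicates) held the top 3. The leading interval, near the rhodopsin gene Rh5, had relative signals of 30.4, 24.6 and 26.8, and a neighbouring interval 674 bp from the Rh5 start had 23.6, 18.7 and 19.7. Replicate 1 was highest at both. A summit 1807 bp from the start of Antp, a Hox gene of the Antennapedia complex, had relative signals of 19.5, 19.7 and 18.5. It lay in an exon of a noncoding transcript. The summit with GAGAG copies in the same window, nearest to the coding start of Sodh1, a sorbitol dehydrogenase gene, at 14914 bp, had 16.8, 16.3 and 15.3. A summit in an intron at 2L, 1431 bp from the start of cbt, a zinc-finger factor, had 15.3, 15.1 and 16.4. Another in an intron of gpp, the Dot1 histone methyltransferase of flies, had 17.0, 14.4 and 14.9. The others among the 10 were those of tna, CG43245 and CG45088 given above.

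The replicates held similar numbers of peaks in the clusters. The list that chose the windows was made from these replicates, and each was cut to the same number of peaks. The similar counts are thus no independent evidence. Of the 8143 strongest peaks per replicate, 1721, 1732 and 1716 summits fell in the 136 windows, or 21.2% ± 0.101 (SD, n = 3). By its own strongest peaks, replicate 1 reached 10 summits in 110 of the windows, replicate 2 in 105 and replicate 3 in 100. All 3 did so in 80 windows and none in 9, and the lowest count of any replicate in any of the windows was 5. The threshold cut through a continuous range: 47 windows held 9 summits and 44 held 10. Windows with 9 had medians of 9, 9 and 8 strongest summits in the replicates, and windows with 10 had medians of 10, 9 and 9. The clusters ranged from 10 to 33 summits, with a median of 12, and 63 held only 10 or 11. The set aside windows of the Bithorax complex reached 43.

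**Figure D2:**
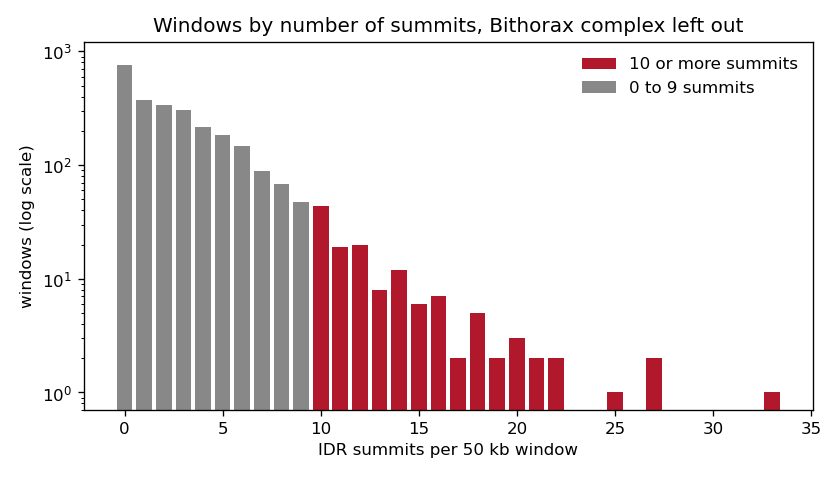
Number of 50 kb windows (log scale) by the number of IDR summits they hold, with the Bithorax complex left out. Red bars are the 136 windows with 10 or more, and their counts continue the fall seen in the grey bars, from 47 windows with 9 summits to 44 with 10.

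**Figure D3:**
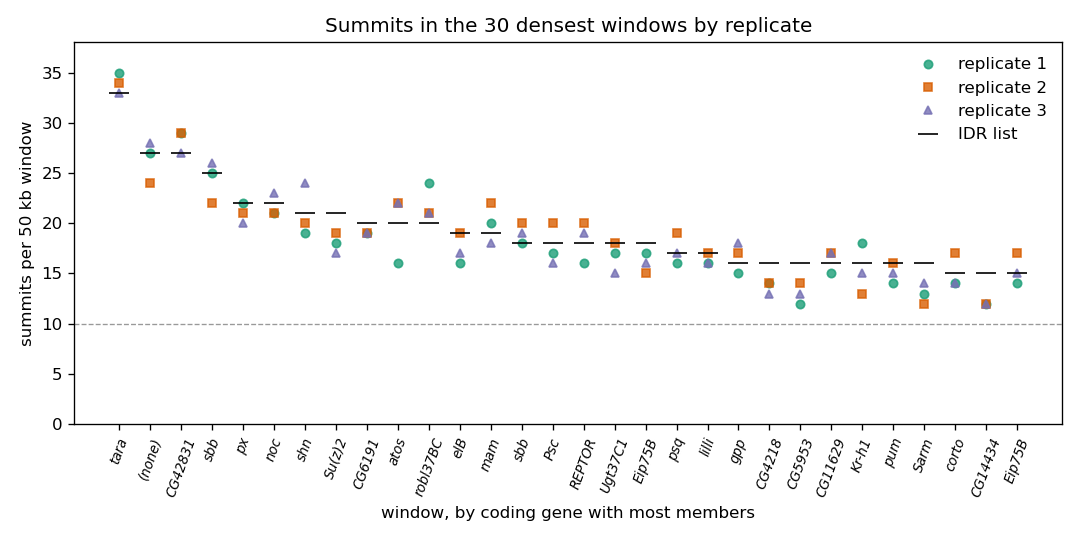
Summits per window among the 8143 strongest peaks of each replicate (symbols) and in the IDR list (black line) in the 30 densest windows, named by the coding gene with most summits. The dashed line is the minimum of 10, and all symbols lie above it.

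Within the clusters, 1440 summits (80.8%) lay in intervals overlapped by the strongest peaks of all 3 replicates, and 2 in intervals overlapped by those of none. The share was 70.2% of the 6232 other IDR summits outside the complex and 89.8% of the 128 in the Bithorax windows. The median relative signal of clustered summits was 3.02, 2.83 and 2.89 in replicates 1, 2 and 3, against 2.37, 2.27 and 2.33 for the other summits. Clustered summits were stronger in each replicate, by a mean of 0.591 (SD 0.0457, n = 3). The exact two-sided sign-flip permutation test gave p = 0.25, the smallest that 3 replicates allow. The same replicates went into the list that chose the windows, so this difference is no independent evidence. Counting each interval once left it at 2.78, 2.57 and 2.68 against 2.33, 2.22 and 2.28. Several summits shared an interval for 23.1% of clustered summits and 8.14% of the others. Across the 1783 summits, which share libraries and intervals, the rank correlation (Spearman's rho) of relative signal was 0.845 between replicates 1 and 2, 0.840 between 2 and 3 and 0.887 between 1 and 3.

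The clusters were spread over the large autosomal arms, with 28 windows on 2L, 24 on 2R, 36 on 3L and 39 on 3R. The X had 9, or 1.91% of its windows, and chromosome 4 had none. Most stood alone: 86 windows had no dense neighbour, 20 runs were of 2 windows, 2 were of 3 and 1 was of 4. Both runs of 3 lay on 3R, at plh and corto (chr3R:4950001-5100000, 37 summits) and at Antp (chr3R:6900001-7050000, 34 summits). The Antp run held 36, 28 and 34 summits among the strongest peaks of replicates 1, 2 and 3, so replicate 2 was lowest there. Neighbouring summits in a window were a median of 1653 bp apart, with the middle 50% of gaps between 827 and 3952 bp.

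Introns held 49.5% of clustered summits and intergenic DNA 25.01%, while promoters, taken as 500 bp around any transcript start, held 20.4%. Among the other summits outside the complex the shares were 45.2%, 22.0% and 29.8%. The promoter share of the clusters had a 95% exact binomial interval of 18.6% to 22.4%, which covers counting error only and treats neighbouring summits as independent. The lower promoter share was found under all 11 settings compared, which varied the windows, the minimum, the list and the replicates kept. The intron share was not so stable: with a minimum of 12 summits it was 43.7%, below the 46.6% of the remaining summits, and the intergenic share was 30.9% against 21.3%. Introns fill 48.8% of the positions in the clusters and promoters 14.0%. Coding exons fill 9.52% of the positions but held 3 summits (0.168%), though a summit within 500 bp of a start counts as promoter even in an exon. The median distance to a coding transcript start was 3912 bp for clustered summits and 2392 bp for the others.

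**Figure D4:**
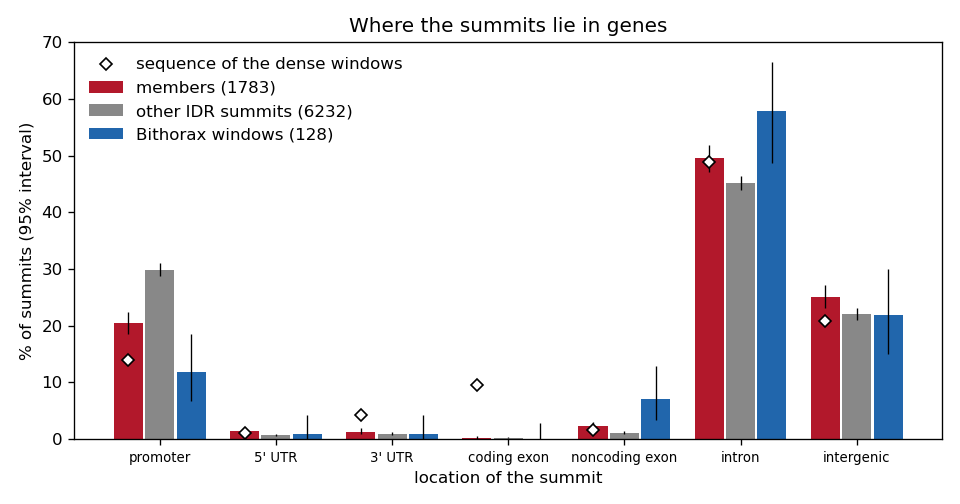
Percent of summits in each location class for the clusters (red), the other IDR summits (grey) and the Bithorax windows (blue), with 95% exact binomial intervals. Diamonds give the share of positions in the clusters, and the promoter bar of the clusters (20.4%) stands below that of the other summits (29.8%).

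The clusters held fewer coding genes and longer ones than other windows with summits. They had a median of 4 coding genes, and 10.4% of their sequence was coding, against 6 genes and 16.9% in the 1773 windows with 1 to 9 summits. The 764 windows with no summit held fewer still, a median of 2 genes and 5.03% coding sequence. The median length of the longest coding gene over a window was 41.7 kb against 33.1 kb. GC content hardly differed, at medians of 42.0% and 42.5%. In 96 of the 136 windows a single coding gene, extended by 2000 bp, held at least 50% of the summits, and in 28 windows all summits lay inside the body of 1 gene. Examples of the latter kind are sbb, px and shn, described above, and pum, encoding a translational repressor, with 16 of 16. No coding gene had a summit within 2000 bp in 3 windows, all on 3L, with 27, 14 and 10 summits. The windows also held a median of 16 weaker peaks of the pooled list, below the IDR threshold, against 9 in the windows with 1 to 9 summits.

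Of 13945 coding genes, 421 (3.02%) had a clustered summit in the gene or within 2000 bp, and 55 had 10 or more. Those 55 had a median length of 65.0 kb, against 2.17 kb for all coding genes, and 103 of the 1013 coding genes over 20 kb (10.2%) had a clustered summit. The counts below are read beside both shares. The gene lists were chosen with results of these data known, and no list was tested. The median number of clustered summits per gene was 0 in every list and over all coding genes.

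Genes that regulate chromatin were hit at several loci. Of 15 trithorax-group and related genes 4 had clustered summits: tara with 19, tna with 15, gpp with 14 and trx, the histone methyltransferase that names the group, with 10. Of 16 Polycomb-group genes 5 did. These were ph-p with 9 and ph-d with 2, the tandem polyhomeotic genes of the X, Su(z)2 with 7, Psc with 5, and phol, a relative of Pho, with 3. At ph-p the window held 10, 12 and 11 summits among the strongest peaks of the replicates, and its leading summit had relative signals of 11.1, 7.98 and 11.9, lowest in replicate 2. The trx window held 11, 11 and 7, and its leading summit had 6.94, 11.2 and 7.31, highest in replicate 2. Other dense windows were led by genes of chromatin proteins, among them simj, a subunit of the NuRD complex, with 12 summits, Smr, a corepressor of nuclear receptors, with 12, Kdm2, a histone demethylase, with 6, and corto, a partner of both groups, with 5.

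Of 15 genes of the ecdysone pathway, the steroid hormone of moulting, 5 had clustered summits. Eip75B, a nuclear receptor gene induced by the hormone, had 20 over a pair of adjoining windows. The replicates held 31, 32 and 31 of their strongest summits in that pair. EcR, which encodes the hormone receptor itself, had 12, all in its body, and the leading one had relative signals of 10.8, 10.7 and 9.95. The nuclear receptor gene ftz-f1 had 10, Eip78C had 2 and MsrA had 1. Kr-h1, a zinc-finger gene of the juvenile hormone response, led another window with 11.

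Clustered summits also lay at genes of several signalling pathways. Of 19 Wnt pathway genes 4 had them: the receptors fz2 with 21 and fz with 11, the feedback inhibitor nkd with 11 and the ligand Wnt2 with 3. In the Notch list, 2 of 9 did, the coactivator mam with 19 and E(spl)m8-HLH, a target gene, with 1. The related gene E(spl)mbeta-HLH, not among those 9, led a window of 14 summits with 4 of them. In the BMP list of 14 it was shn with 21 and brk, a repressor of Dpp targets, with 2. In the EGF list of 13 it was aop, the ETS repressor Yan, and sty, the inhibitor sprouty, with 8 each. The mam window held 20, 22 and 18 summits in the replicates, and its leading summit had relative signals of 7.99, 6.99 and 8.72. The InR window, of the insulin receptor, had 14 summits, and puc, a phosphatase that limits JNK signalling, had 10. No gene had a clustered summit in the lists of 9 hedgehog and 6 FGF genes.

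Of the 8 Hox genes, Antp alone had clustered summits, with 22; the genes of the Bithorax complex were set aside by the rule. Among 9 Hox partner and cofactor genes, hth, which encodes the TALE partner homothorax, had 11 and tsh, a zinc-finger gene of trunk identity, had 6. The hth window held 14, 11 and 13 summits in the replicates, and its strongest summit had relative signals of 9.76, 9.85 and 8.57. Of 14 BTB-domain genes, 4 had clustered summits: psq with 14, ab with 8, rib with 5 and chinmo with 2. The heart list of 14 held the 3 T-box genes Doc1, Doc2 and Doc3 with 2 each, all in 1 window. Among 21 mesoderm and muscle genes, kirre, an adhesion protein of muscle founder cells, had 11 and the homeobox gene Dr had 4. Dr was also 1 of 2 among 24 neural factor genes, the other being grh, a factor of epidermis and neuroblasts, with 9.

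A list of RNA regulators had 3 of 11 with clustered summits, sbb with 33, pum with 29 and brat, a partner of Pumilio, with 8, although sbb acts in the nucleus and fits the list poorly. None of the 29 axon guidance, 18 ion channel, 19 cytoskeleton and adhesion or 21 segmentation genes listed had one, beside 3.02% of all coding genes. These lists were partial. The acetylcholine receptor gene nAChRalpha6, with 10, was not on the ion channel list, and kirre, with 11, was not on the adhesion list. Yet many of these lists held IDR summits elsewhere, for example 24 of the 29 axon guidance genes. An IDR summit anywhere was also at 3694 of all 13945 coding genes and at 840 of the 1013 over 20 kb. Other windows were led by lilli, an AF4-family transcription factor (22 summits in all), jing (21), ush, a cofactor of GATA factors (21), Tlk, a kinase (24), Glut4EF (25, shared with the overlapping gene CG46467), REPTOR, a factor downstream of TOR (13), mbl, a splicing regulator (12), rdx, a ubiquitin ligase adaptor (12), spen (12) and bun (11). The REPTOR window held 16, 20 and 19 summits in the replicates.

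Further windows were led by transcription factor genes with fewer summits. Among them were the bHLH gene Oli (3), the homeobox genes NK7.1 (7), mirr (2) and ems (1), the bZIP genes Pdp1 (10), Atf3 (7) and CrebA (6), the zinc-finger gene crol (7), foxo of the insulin pathway (5), and sima, a subunit of the hypoxia-inducible factor (9). At the ems window 11 of 12 summits were intergenic, and the replicates held 11, 13 and 11. At the mirr window 9 of 12 were intergenic, and the replicates held 11, 9 and 8. The leading mirr summit had relative signals of 10.8, 9.50 and 10.8. Most summits of both windows thus lay between genes.

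Some windows were led by genes of neurons or of general cell functions. These were Sarm, an NAD-cleaving enzyme of axon degeneration (15), brp, a scaffold of the synaptic active zone (8), ChAT, the enzyme of acetylcholine synthesis (8), nAChRalpha6, an acetylcholine receptor subunit (10), Diap1, an inhibitor of apoptosis (7), PAN3, a deadenylase subunit (11), and eIF4EHP, a cap-binding repressor of translation (7). The Diap1 window held 15, 13 and 15 summits in the replicates. Its strongest summit was the intergenic TTAATTA summit near mib1, not one at Diap1, with relative signals of 6.45, 6.29 and 6.98. The nAChRalpha6 window held 9, 5 and 7, and the 5 of replicate 2 was the lowest count of any replicate in any of the windows.

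Words were sought within 50 bases on either side of each summit, and likewise at a flanking position 500 bp from it. GAGAG was found at 21.4% of the 1783 clustered summits and 11.9% of their flanks. The other summits had it at 18.3% and their flanks at 10.9%. Outside promoters the share was 20.8% at clustered summits and 16.4% at the other summits, and at promoters 23.6% and 22.8%. Over the whole genome 11.4% of stretches of the same length held it, and within the clusters 12.6% did. CACACACA was found at 8.24% of clustered summits and 3.98% of their flanks, and at 6.19% of other summits and 2.86% of theirs. It was in 2.09% of genomic stretches and 3.17% of those within the clusters, so the background of the clusters was also richer in it. GCCAT was at 23.9%, with 14.7% in flanks and 19.7% of genomic stretches, close to the 24.5% of the other summits. In the Bithorax windows the order differed, with GCCAT at 45.3%, GAGAG at 16.4% and CACACACA at 1.56% of 128 summits.

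The homeodomain words went the other way. TAATTA was at 4.60% of clustered summits and 8.75% of flanks, and 6.46% of genomic stretches held it. The other summits had it at 5.36%. TTAATTA, which contains TAATTA, was at 3.03% of clustered summits, 5.55% of flanks and 3.48% of the other summits. The paired Hox and extradenticle words TGATTTAT and TGATTAAT were at 0.617% and 0.337%, with 1.23% and 0.953% in flanks. The other summits had them at 1.25% and 0.353%. GC content moved with these shares: its median was 45.5% at clustered summits and 38.6% in their flanks. The other summits and their flanks had the same medians. The part of GC content in the word shares was not tested. Of the remaining words, TGACAG, a homothorax site, was at 4.09% of clustered summits and AACCGG, a grainy head core, at 2.36%. CAGGTA, a Zelda core, was at 1.23% and TATCGATA, the DREF site, at 0.280%. In the same order, flanks had 3.76%, 2.13%, 1.85% and 0.168%, and the other summits 4.06%, 2.57%, 1.38% and 0.530%.

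The words were also counted per window. Each window holds 10 or more summits, so a common word is likely to occur in most windows by number alone. No such count was made for other windows. At least 1 clustered summit had GAGAG in 127 of the 136 windows, GCCAT in 132, CACACACA in 83 and TAATTA in 55. GAGAG was at 50% or more of the summits in 6 windows. The highest share was in the Pepck2 window (7 of 11). The others were Eip75B (9 of 18), AcCoAS (6 of 12), hth (6 of 12), crol (5 of 10) and ftz-f1 (5 of 10). GCCAT reached 50% in 9 windows. Among them were elB (10 of 19) and mirr, a homeobox gene of the Iroquois complex (6 of 12). Antp windows had 7 of 11 and 5 of 10. The rest were CG6163 (8 of 14), fz2 (6 of 12), brat (5 of 10), CG42238 (5 of 10) and CG42342 (5 of 10). CACACACA reached 50% in none, and the 3L window with no coding gene had the most summits with it, 7 of 27.

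**Figure D5:**
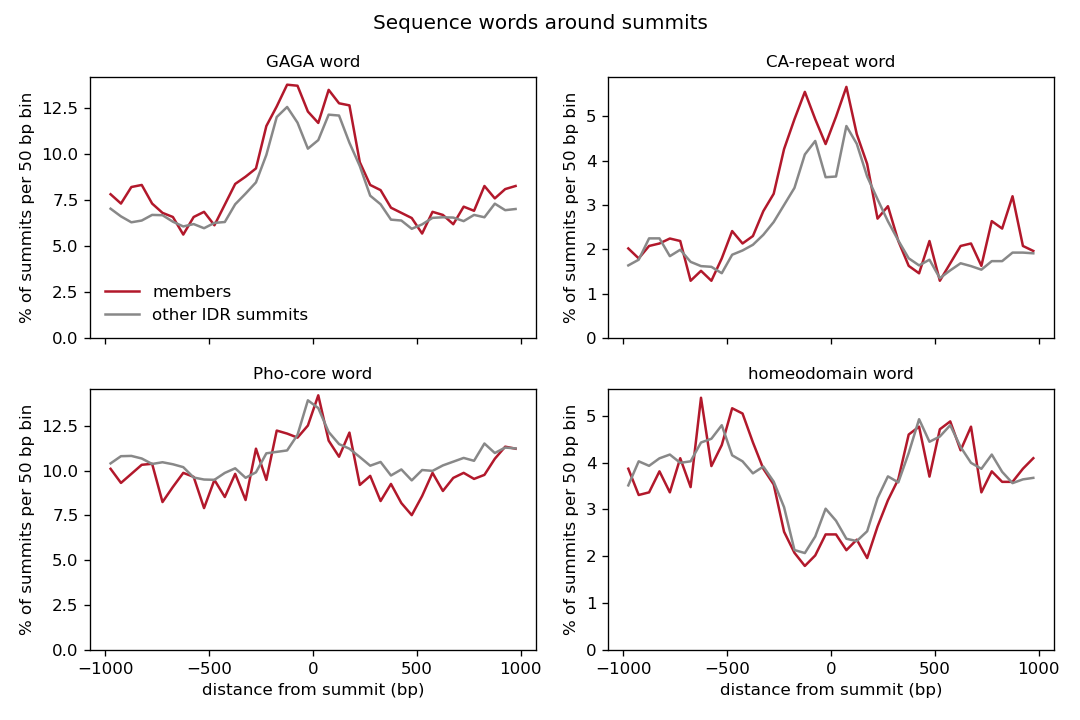
Percent of summits with a word in each 50 bp bin against distance from the summit in bp, for GAGAG (GAGA word), CACACACA (CA-repeat word), GCCAT (Pho-core word) and TAATTA (homeodomain word), at 1783 clustered (red) and 6232 other IDR summits (grey). The first 2 are highest within about 200 bp of the summit, and the homeodomain word is lowest there.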

How the data were processed

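The authors deposited 5 narrowPeak lists on dm6: 1 per replicate and 1 on pooled replicates, each of 30000 peaks, and the IDR list, per the deposited text records. The replicate lists shared 1 control file, per those records. No source used here gives the aligner, the peak caller or the IDR threshold, and read depth is unknown. The deposited signal value is a score set by the authors' caller; it served for ranking within a list and was divided by the list median.

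Each summit was counted once. Genes came from Ensembl release 115 (FlyBase release 6.54), and sequence from the RefSeq genome of release 6, which shares coordinates with dm6. Each summit took its class from transcript starts, then UTRs, exons, introns. Named genes were those with 3 or more clustered summits in the 10 densest windows, the leading gene of other windows, the nearest coding start of the 10 strongest summits, and the top 3 of each list. Names beyond these, such as Dr and ph-d, were chosen after values were seen. The windows, lists and words were chosen with earlier results of these data known. Of 20 lists, 3 symbols matched no gene. Replicate means ± SD measure the spread among 3 samples of 1 group. Intervals are 95% Clopper-Pearson. Python 3.11.15, numpy 2.4.6, pandas 2.3.3 and scipy 1.17.1 were used, and counting was tested on simulated data.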

Additional observations from a re-analysis of the deposited data

How the results depend on the processing

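The number of dense windows, 136 as reported, followed the rule: 464 with 25 kb windows and 5 summits, 35 with 100 kb windows and 20, 251 with a minimum of 8, 73 with a minimum of 12, and 209 with the stronger 50% of the list and a minimum of 5. Clustered summits numbered 3129, 888, 2750 and 1134 under the first 4. Without 1 replicate, windows numbered 81 to 89 and summits 1068 to 1173, since only summits among the strongest peaks of the remaining replicates were kept. Shifting the windows by 25 kb kept both counts within 1.5 times. The intron share was 45.3% with 100 kb windows, 43.7% with a minimum of 12, 45.6% with the stronger 50%, and 44.0% to 45.4% without 1 replicate. In these settings, save the stronger 50%, it was below that of the remaining summits. The promoter share was 24.4% with 25 kb windows, 22.7% with a minimum of 8, 25.4% with the stronger 50% and 29.9% with promoters of 1000 bp. The share found in all 3 replicates was 78.8% with a minimum of 8, 77.5% with distinct intervals, 97.8% with the stronger 50% and 64.4% where summits had to lie within 100 bp. Without 1 replicate, only summits shared by the remaining lists were kept, and the share also found in the list left out was 96.2%, 93.4% and 96.0% without replicates 1, 2 and 3, against 92.5%, 88.6% and 91.5% of the remaining summits. The mean of the replicates' median relative signals was 2.80 with 25 kb windows, 3.11 with 100 kb, 2.77 with a minimum of 8, 3.09 with a minimum of 12, 2.67 with distinct intervals, 3.74 with the stronger 50% and 3.43 to 3.55 without 1 replicate. Over all 3 replicates it stayed above that of the remaining summits in all 11 settings compared, as did the intergenic share. The cause of these shifts was not tested. No paired analysis was possible because there is 1 group. Of 92 results under alternatives, 38 stayed close to the reported value (counts within 1.5 times, other values within the replicate spread or counting interval), and 9 of 11 word shares moved when 100 bases on either side were searched. Unknown depth limits every absence of a peak.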
